A study of Mus musculus with 4 samples.

Results

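The contractile genes of vascular smooth muscle were examined in mouse prefrontal cortex: Acta2, Tagln, Myh11, Tpm1, Tpm2, Myl9, Mylk, Cnn1, Pln and Des. Every probe set annotated with exactly 1 gene symbol, that symbol being 1 of the 10, was taken, which gave 24 of the 45037 probe sets tested and 10 of 18193 genes. The 10 genes were chosen by their role and with values of these same arrays known: several had been seen to lie lower in the threat pools and to differ between pools. Their differences are therefore given as a description, with an error and no test. Each of 4 Affymetrix MOE430 2.0 arrays held RNA pooled from 5 mice. The control group (labelled LowThreat) comprised pools 1 and 2, and the threat group (labelled HighThreat), mice exposed repeatedly to a social threat, comprised pools 1 and 2. Strain, sex, age, the threat procedure and how much vessel or brain covering each dissection held are not stated in the labels.

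Smooth muscle cells wrap the arteries and arterioles of the brain and its coverings and set vessel width. Calcium entering the cell binds calmodulin, which switches on myosin light chain kinase (Mylk). The kinase phosphorylates the regulatory light chain (Myl9), and smooth muscle myosin (Myh11) then pulls on filaments of smooth muscle actin (Acta2). Tropomyosins, calponin and transgelin lie along these filaments, desmin ties them to the cell's framework, and phospholamban controls the pump that returns calcium to its store. Many of these genes are switched on by serum response factor with its partner myocardin, through a short promoter motif, the CArG box.

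By the probe set with the highest mean of each gene, 9 of the 10 genes had both threat pools below both control pools, the exception being Tpm1. Of these, 8 also differed by at least 1.5-fold: Acta2, Tagln, Myh11, Tpm2, Myl9, Mylk, Cnn1 and Pln. Among all genes, 18.8% had both threat pools below both control pools and 0.715% passed the 1.5-fold limit as well (0.719% of all probe sets). Nothing is read from these counts, because this contrast helped to choose the genes. The median log2 difference, threat minus control, was -1.07 over the 10 genes and 0.02 over all genes. Control pool 2 carried the highest value of the 4 pools for all 10 genes, and threat pool 1 the lowest for 6. Among all 18193 genes, control pool 2 was highest for 19.4% and threat pool 1 lowest for 3628. Without control pool 2, 4 of the 10 genes (Acta2, Tagln, Myh11 and Mylk) kept a 1.5-fold difference and the median was -0.53; without control pool 1 it was -1.64. With all probe sets of a gene averaged, dim ones included, the median was -0.71. In this bulk tissue, fewer smooth muscle cells and less of these transcripts per cell cannot be told apart.

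**Figure D1:**
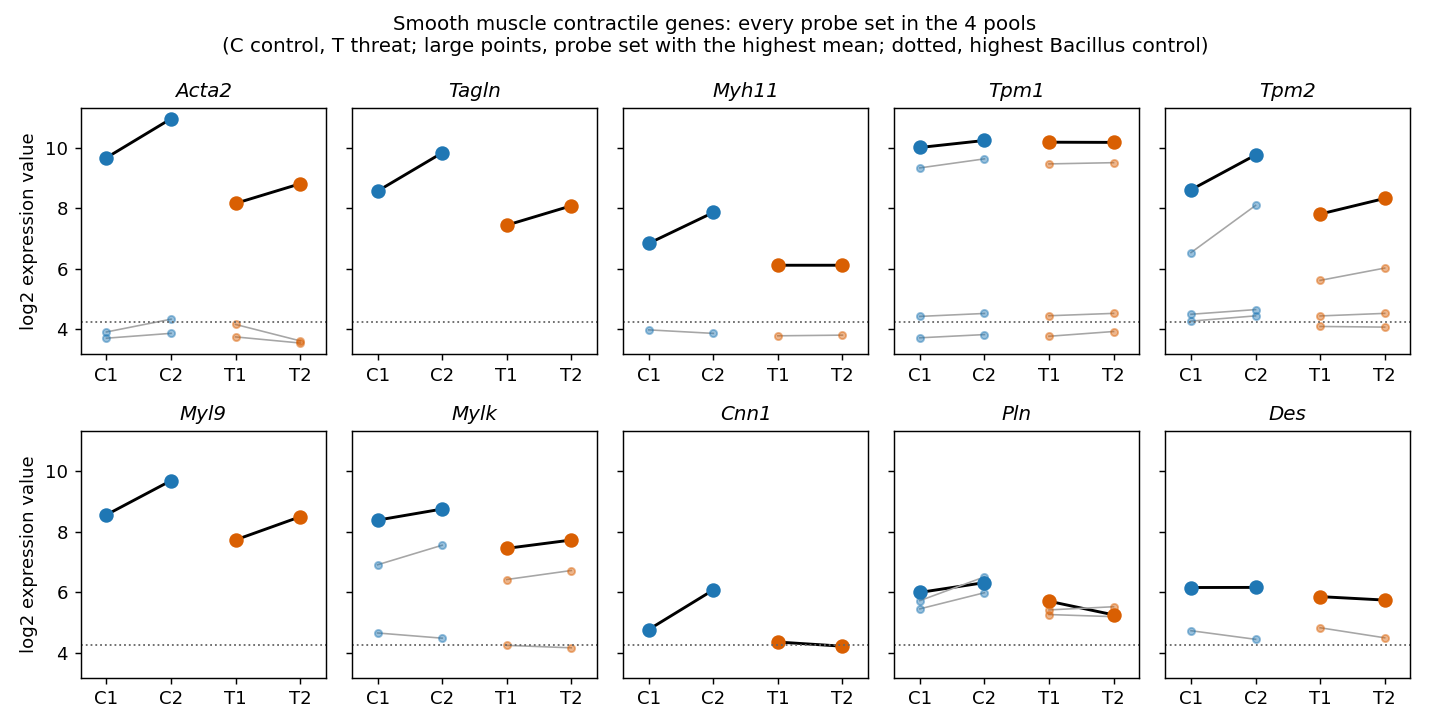
Log2 expression value (vertical axis) of all 24 probe sets of the 10 genes in control pools 1 and 2 (C1, C2, blue) and threat pools 1 and 2 (T1, T2, orange). Large points joined by black lines are the probe set with the highest mean, small points the others, and the dotted line is the highest Bacillus control value (4.25). Control pool 2 is highest in the large points of every panel, and only Tpm1 has overlapping groups there. Levels of different probe sets are not comparable with each other.

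Stretches before the starts of 2 of these genes are shown because smooth muscle promoters are known for this motif. They were looked for with the members' differences already known. A CArG box is 10 letters long: CC, then 6 letters each A or T, then GG, a pattern that is its own reverse complement and so covers both strands. RefSeq promoter windows (GRCm38.p6, 300 bases, 250 before to 50 after the start) matched 8 of the 10 genes; Tagln and Myh11 did not match. The strict pattern was in 1 of the 8 windows (Myl9) and in 1.63% of 32851 windows of that length. With 1 of the 6 inner letters allowed to be C or G, it was in 2 of the 8 (Myl9 and Acta2) and in 9.98% of all windows. The 4 matches are printed 5′ to 3′ on the gene's strand with the 10 letters in capitals. These are matches of letters only, and no binding was measured.
Myl9, chr2:156775293-156775322, plus strand, strict: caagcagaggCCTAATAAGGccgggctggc
Myl9, chr2:156775355-156775384, plus strand, 1 inner G: cattcttctgCCTTGTAAGGccgggcggcc
Acta2, chr19:34255438-34255467, minus strand, 1 inner C: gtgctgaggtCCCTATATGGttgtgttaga
Acta2, chr19:34255388-34255417, minus strand, 1 inner G: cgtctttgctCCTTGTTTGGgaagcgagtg
The pair in Myl9 began 161 and 99 bases before the start that the window uses, and that in Acta2 84 and 34 bases before its own. RefSeq places the first base of the Myl9 gene inside the window, before the start that the window uses. The stretch that holds both matches and ends just before that first base is chr2:156775214-156775407, plus strand: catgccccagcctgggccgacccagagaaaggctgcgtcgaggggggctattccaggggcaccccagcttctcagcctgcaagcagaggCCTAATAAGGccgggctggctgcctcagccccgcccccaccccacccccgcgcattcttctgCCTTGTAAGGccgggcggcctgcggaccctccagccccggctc. In the arrays, both of these genes lay lower in the threat pools, as did 7 members whose windows held no match or that had no window: Tagln, Myh11, Tpm2, Mylk, Cnn1, Pln and, by under 1.5-fold, Des.

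Acta2 encodes the actin of the smooth muscle thin filament. Its probe set with the highest mean measured 9.68 and 10.96 (log2) in control pools 1 and 2 and 8.16 and 8.81 in threat pools 1 and 2. The groups did not overlap, the nearest pools being 0.86 apart. The log2 difference was -1.83 ± 0.44 (SE, n = 2 pools a group), or 3.56-fold lower, and -1.19 without control pool 2. Control pool 2 exceeded control pool 1 by 1.29, so the pools of 1 group differed by more than control pool 1 differed from threat pool 2. The other probe sets of Acta2 ran from 3.54 to 4.33, at or near the Bacillus controls, and carry no usable level. The informative probe set has the suffix _s_at, which marks probes shared between transcripts, so a share from another actin cannot be told apart.

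Tagln, or SM22, a small calponin-like protein on the actin filament, is read by a single probe set. It measured 8.57 and 9.84 in control and 7.44 and 8.08 in threat. The groups were separate by 0.49, and the log2 difference was -1.44 ± 0.43 (SE), or -0.81 without control pool 2. Pool 2 was above pool 1 in both groups, by 1.27 in control and 0.64 in threat, as it was for Acta2.

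Myh11 encodes the smooth muscle myosin heavy chain, the motor of the thick filament. It measured 6.84 and 7.86 in control, then 6.11 and 6.12 in threat. The threat pools were thus almost equal while the control pools were 1.02 apart. The log2 difference was -1.24 ± 0.32 (SE), or 2.35-fold, and the nearest pools were 0.72 apart. Without control pool 2 it was -0.72. Its second probe set stayed between 3.78 and 3.98 in all pools, below the highest Bacillus control.

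Myl9 is the regulatory light chain of that myosin. It measured 8.56 and 9.69 in control and 7.73 and 8.50 in threat. Control pool 1 and threat pool 2 were only 0.07 apart, the smallest separation among the 9 genes with separate groups. The log2 difference was -1.01 ± 0.42 (SE), but -0.45 without control pool 2, -1.58 without control pool 1 and -0.63 without threat pool 1.

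Mylk, the kinase that phosphorylates Myl9, had pools of a group that lay closer together than those of Acta2, Tagln, Tpm2 and Myl9. Its brightest probe set measured 8.38 and 8.75 in control and 7.45 and 7.73 in threat. The log2 difference was -0.98 ± 0.16 (SE). Each of the 4 pairs of a threat and a control pool differed by between -0.66 and -1.30. A second probe set showed the same order of pools at 6.91, 7.55, 6.42 and 6.72, with a difference of -0.66 ± 0.23. The third, at 4.65 and 4.48 in control and 4.24 and 4.16 in threat, lay near the Bacillus controls with a difference of -0.36 ± 0.11. The Mylk locus makes long and short kinases and a kinase-free protein, and the annotation does not say which transcript each probe set reads.

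The 2 tropomyosins, coiled-coil proteins that lie in the groove of the actin filament, gave different results. The brightest probe set of Tpm2 measured 8.61 and 9.77 in control and 7.81 and 8.33 in threat, which gave a log2 difference of -1.12 ± 0.39 (SE). It was -0.55 without control pool 2 and -1.70 without control pool 1. A second Tpm2 probe set measured 6.53 and 8.09 against 5.61 and 6.02, a difference of -1.50 ± 0.49. Control pool 2 stood 1.15 and 1.56 above control pool 1 in these probe sets, the second being the widest gap of any member probe set. The remaining Tpm2 probe sets lay between 4.07 and 4.65, with differences of -0.09 and -0.27. Tpm1, which is made in many cell types besides smooth muscle, measured 10.01 and 10.25 in control and 10.19 and 10.18 in threat. Its groups overlapped, and the difference was 0.06 ± 0.11. A second bright Tpm1 probe set gave 9.34, 9.64, 9.47 and 9.51 in the same order of pools and a difference of 0.003 ± 0.13. The direction of Tpm1 turned to -0.06 without control pool 1.

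Cnn1, the smooth muscle calponin, which binds actin and restrains the motor, measured 4.76 and 6.07 in control and 4.35 and 4.21 in threat. Both threat pools were close to the Bacillus limit of 4.25, so the size of the difference (-1.14 ± 0.41, SE) is uncertain. The difference was -0.48 without control pool 2 and -1.79 without control pool 1.

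Pln, phospholamban, the brake on the calcium pump of the sarcoplasmic reticulum, is read by 3 probe sets of medium signal. The brightest measured 5.99 and 6.32 in control and 5.70 and 5.25 in threat, which gave a log2 difference of -0.68 ± 0.19 (SE). The others gave -0.65 ± 0.25 and -0.49 ± 0.18, and the groups were separate in all 3. Without threat pool 2 the first of these was -0.45, short of 1.5-fold. Des, desmin, the intermediate filament of muscle cells, measured 6.15 and 6.16 in control and 5.85 and 5.74 in threat. That difference was small but exceeded the spread within groups, at -0.36 ± 0.09 (1.28-fold). The other Des probe set had overlapping groups, from 4.44 to 4.82, and a difference of 0.07 ± 0.16.

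**Figure D2:**
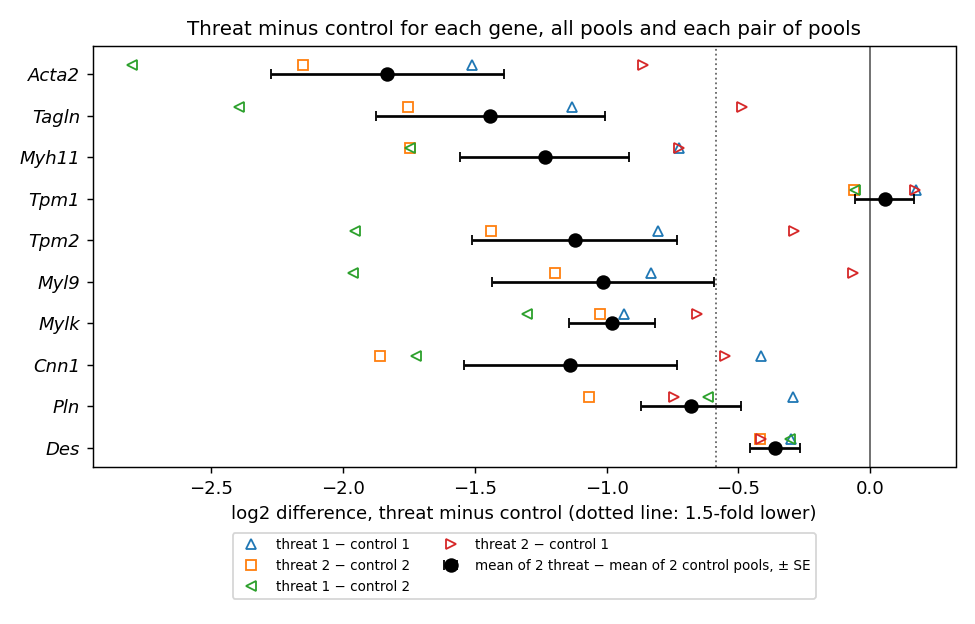
Log2 difference, threat minus control (horizontal axis), for the probe set with the highest mean of each gene. Black points are the difference of group means with the SE of the limma fit, open symbols the differences of single pools, and the dotted line is 1.5-fold lower. Tpm1 lies near 0 at 0.06, while Acta2 spans from -0.86 to -2.80 over its 4 pairs of pools.

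Pools of the same group were then set against each other, pool 2 minus pool 1, with 1 array on each side and so no test. In control, pool 2 was higher for all 10 genes, for Des by only 0.0037, with a median log2 gap of 1.08. Past 1.5-fold were 6 genes: Acta2, Tagln, Myh11, Tpm2, Myl9 and Cnn1. Among all 18193 genes, pool 2 was higher for 8002 in control and for 7771 in threat. In control 1.68% of all genes were past 1.5-fold in that direction. In threat, pool 2 was higher for 6 of the 10, with a median gap of 0.14, and 3 were past 1.5-fold (Acta2, Tagln and Myl9), against 1.51% of all genes. The gaps between pools were known when the genes were chosen. The gap was greater in control than in threat, with its sign, for all 10 genes, against 49.4% of all genes, and this difference was not tested.

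Within pool number 1, threat was below control for 9 of the 10 genes, with a median of -0.76. Within number 2 it was below for all 10, with a median of -1.32. Among all 18193 genes, threat was below control for 8217 within number 1 and for 8087 within number 2. Nothing is read from the members' counts, because the contrast of threat with control helped to choose the genes. Acta2 was at -1.51 in number 1 and -2.15 in number 2, the farthest from 0 in each. Cnn1 was at -0.41 and -1.86, and Pln at -0.29 and -1.07. The labels do not say that a number marks a shared day, cage or batch.

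**Figure D3:**
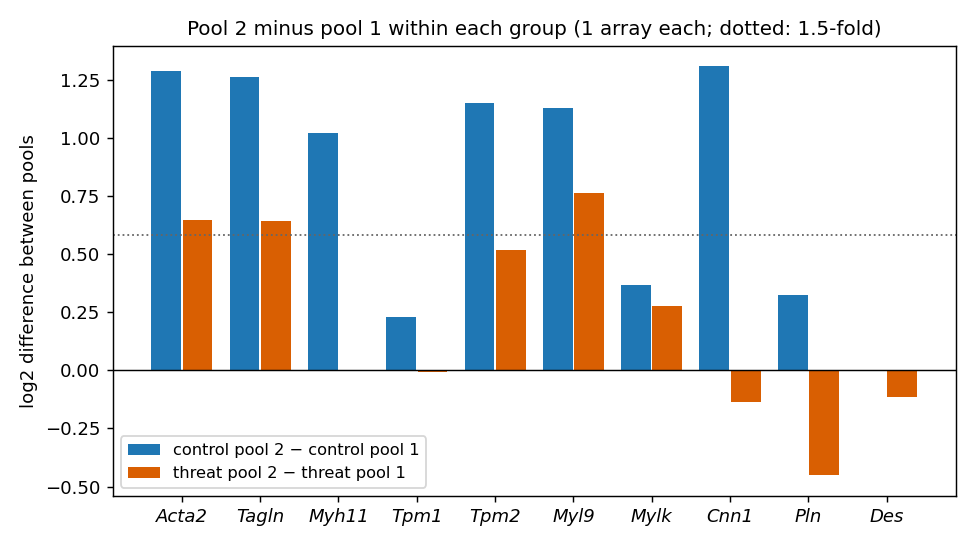
Log2 difference between pool 2 and pool 1 of the same group (vertical axis) for each gene, control in blue and threat in orange, 1 array on each side. The control gap is 1.29 for Acta2, 1.02 for Myh11 and 1.31 for Cnn1, where the threat gaps are 0.65, 0.00 and -0.14.

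Genes of the same pathway outside the 10 were compared through lists set by role. Of 86 such genes 80 were measured, and none had a limma adjusted p under 0.05, nor did any of the 45037 probe sets (0%). At an unadjusted p under 0.05 there were 14 lower and 4 higher of the 80, against 10.6% of all probe sets in either direction. The median log2 difference of the 80 was -0.06. The limit of 1.5-fold with separate groups was met by 5 genes, all lower in threat, and by none higher. By that limit, 0.715% of all genes were lower and 0.066% higher.

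Among 17 other genes of the contractile apparatus, 3 met that limit and 13 lay below 0. Cald1, caldesmon, which restrains actin and myosin, measured 8.999 and 9.72 in control and 8.35 and 8.99 in threat, which gave a log2 difference of -0.69 ± 0.30 (SE) with a limma adjusted p of 0.49. Its control pool 1 and threat pool 2 differed by less than 0.01. Of its 4 other probe sets, 1 had separate groups (-0.31), while those at -0.74, -0.06 and 0.19 had overlapping groups. Flna, the actin cross-linker filamin A, was at -0.69 ± 0.26. Actg2, the actin of gut smooth muscle, was at -0.80 ± 0.17, with threat values of 3.86 and 3.97 that lie under the highest Bacillus control. Csrp1, a LIM protein of actin bundles, was at -0.51 ± 0.09, with 10.69 and 10.72 in control and 10.16 and 10.24 in threat. Lmod1, an actin nucleator of smooth muscle, was at -0.48, and Smtn, smoothelin, at -0.30 with overlapping groups. Cald1 and Flna were at -0.33 each without control pool 2 and at -1.05 each without control pool 1, and Cald1 was at -0.37 without threat pool 1. Actg2 was at -0.56 without control pool 2, short of 1.5-fold.

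Of 9 measured genes that control light chain phosphorylation, 2 met the limit. Ppp1r14a, the inhibitor of myosin phosphatase also known as CPI-17, measured 7.92 and 7.42 in control and 6.86 and 6.82 in threat, which gave a log2 difference of -0.83 ± 0.18 (SE). Its control pools were thus ordered opposite to those of Acta2. Without control pool 1 the difference was -0.58, just short of 1.5-fold. Ppp1cb, the catalytic subunit of the phosphatase, was at -0.60 ± 0.09, and its 3 other probe sets were at -0.48, -0.52 and -0.46, all with separate groups. The first of these was at -0.55 without threat pool 2, also short of 1.5-fold. The kinase Rock1 was at -0.37, and the phosphatase subunit Ppp1r12b at 0.24. The adjusted p in limma's test was 0.40 for Ppp1cb, the smallest of the 80 genes, and 0.42 for Ppp1r14a.

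Calcium handling genes had a median of 0.10 over 10 genes, 7 of them above 0. The calcium channel subunit Cacna1c was at 0.38 and the release channels Ryr2 and Ryr3 at 0.38 and 0.24, each with separate groups and a limma adjusted p between 0.44 and 0.47. These are also genes of neurons. The cells behind the signal of any pathway gene, those lower in threat included, were not told apart in this bulk tissue. Kcnmb1, the smooth muscle subunit of the large potassium channel, was at or below the highest Bacillus control in all pools. Of 11 transcription regulators none met the limit, with a median of -0.04. Myocd, myocardin, lay between 4.05 and 4.33, near the Bacillus controls, at -0.17. Its partner Srf was at 0.06, and the related coactivators Mrtfa and Mrtfb were at 0.23 and 0.13. Hey2, a Notch target, was at -0.30 with overlapping groups. Among 10 receptors and cyclic GMP genes the median was -0.05, with the endothelin receptor Ednrb at -0.28, the thromboxane receptor Tbxa2r at -0.25, and Gucy1a1, a subunit of the nitric oxide receptor, at 0.28. Npr1, at 0.27, was below the highest Bacillus control in all pools.

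Relatives of the members from the same protein families gave a median of -0.07 over 23 genes, and none met the limit of 1.5-fold with separate groups. The actins Acta1, Actc1 and Actg1 were at 0.01, -0.07 and 0.01, each with overlapping groups. Actb, also an actin, was at -0.17 with separate groups. Among tropomyosins, Tpm4 was at -0.34 and Tpm3 at -0.04. The light chain Myl12a was at -0.57 with separate groups, and Myl12b at 0.07. Vim, vimentin, the intermediate filament of many mesenchymal cells, was at -0.72 with overlapping groups, 9.29 and 9.95 against 8.48 and 9.33. Mylk3, the heart form of the kinase, was at 0.48.

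The genes outside the 10 whose values over the 4 pools lay nearest to the members' mean profile were found by distance between values centred on each gene's own mean, in log2 units. Among 11922 genes with signal above that of the middle probe set of the array, the median distance was 1.21. The nearest 8 were Cobll1 (0.24), Tob2 (0.26), Crip1 (0.26), Flna (0.32), Igfbp7 (0.32), Eln (0.32), Zic5 (0.38) and Cytl1 (0.38). Eln, elastin, the elastic fibre protein of artery walls, measured 7.07 and 7.92 in control and 6.08 and 6.71 in threat, a difference of -1.10 ± 0.33 (SE). Crip1, a small LIM protein, measured 8.34 and 9.02 against 7.88 and 7.81. The members themselves lay between 0.32 (Mylk) and 1.12 (Tpm1) from their own mean profile. This likeness rests on 4 arrays and has no test. The lower threat values of the 8 genes, Eln and Crip1 included, follow from how they were found.

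Markers of other cells that the tissue could hold were read in the same pools. The 9 measured neuron markers were high in every pool, as the tissue label implies, with a mean level between 11.58 and 11.74. Groups were separate for 4 lower in threat, with Tbr1 at -0.53 and Gad1 at -0.42, and for 2 higher, with Slc17a7 at 0.23. Among all 18193 genes, 3417 were separate and lower and 4770 separate and higher. Striated muscle markers, which would mark muscle carried along in dissection, had 6 of 14 at or below the highest Bacillus control in all pools, a median difference of 0.06 and a mean level between 4.75 and 4.94. None of the 14 met the limit of 1.5-fold. That mean covers 2 brighter markers, Myh7 between 8.33 and 8.67 and Tnnt2 between 6.42 and 7.15. The log2 of the summed signal of the 10 members was 11.82 and 12.71 in control and 11.25 and 11.53 in threat.

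Meningeal fibroblast markers differed between pool numbers in both groups. All 12 were higher in pool 2 than in pool 1 in control and in threat, with median gaps of 1.19 and 1.28, and none had separate groups. The log2 of their summed signal was 12.09 and 13.22 in control and 11.58 and 12.99 in threat. Threat pool 2 was thus above control pool 1 for these markers but below it for 9 of the 10 members. In threat minus control, 10 of the 12 fibroblast markers lay below 0, against 8061 of all 18193 genes. Their median was -0.16, and Mgp was the lowest at -0.91 ± 0.66 (SE). Endothelial markers ran at 11.89 and 12.33 in control and 11.76 and 12.05 in threat, and 3 of 13 were past 1.5-fold with separate groups: Vwf at -1.08, the arterial kinase Bmx at -0.66 and Pecam1 at -0.63. Without control pool 2 these were -0.66, -0.20 and -0.37, without threat pool 1 Vwf was at -0.59, and without control pool 1 Bmx was at -1.11. Bmx measured 4.33 and 5.24 in control and 4.09 and 4.17 in threat, both threat values under the highest Bacillus control, so its size is uncertain. The endothelial median was -0.28, with 11 of 13 below 0 and Kdr at 0.06 and Abcb1a at 0.10 above. Pericyte markers ran at 11.75 and 12.12 against 11.60 and 11.75. Of these 11, 2 were past 1.5-fold with separate groups, Mcam at -0.81 and Pdgfrb at -0.70 (-0.42 without threat pool 1). Rgs5 was at -0.17, Kcnj8 at 0.04 and Abcc9 at 0.10. Choroid plexus markers ran at 9.74 and 8.94 against 8.38 and 8.80, with 1 of 8 past it, Ttr at -1.60, and 2 of 8 at or below the highest Bacillus control. Ttr measured 9.05 and 6.48 in control and 6.15 and 6.18 in threat, and leaving out control pool 1 gave -0.32, leaving out control pool 2 gave -2.89. Among all genes, 0.715% were lower by 1.5-fold with separate groups. The part of these cells in the members' differences was not tested.

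Oligodendrocyte markers, a list added after values of these arrays were known, lay lower in threat for all 9 measured genes. Among all 18193 genes, 8061 lay below 0. Their median was -0.99, and the log2 of their summed signal was 14.63 and 14.29 in control and 13.48 and 13.76 in threat. In control these genes were higher in pool 1 for all 9, the reverse of the members. Among all genes, control pool 2 was the higher for 8002 of 18193. Nothing is read from the counts of this list, because the values were known when it was added. Ppp1r14a, which oligodendrocytes also make, was likewise higher in control pool 1 than in control pool 2. The part of oligodendrocytes in the value of Ppp1r14a was not tested.

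**Figure D4:**
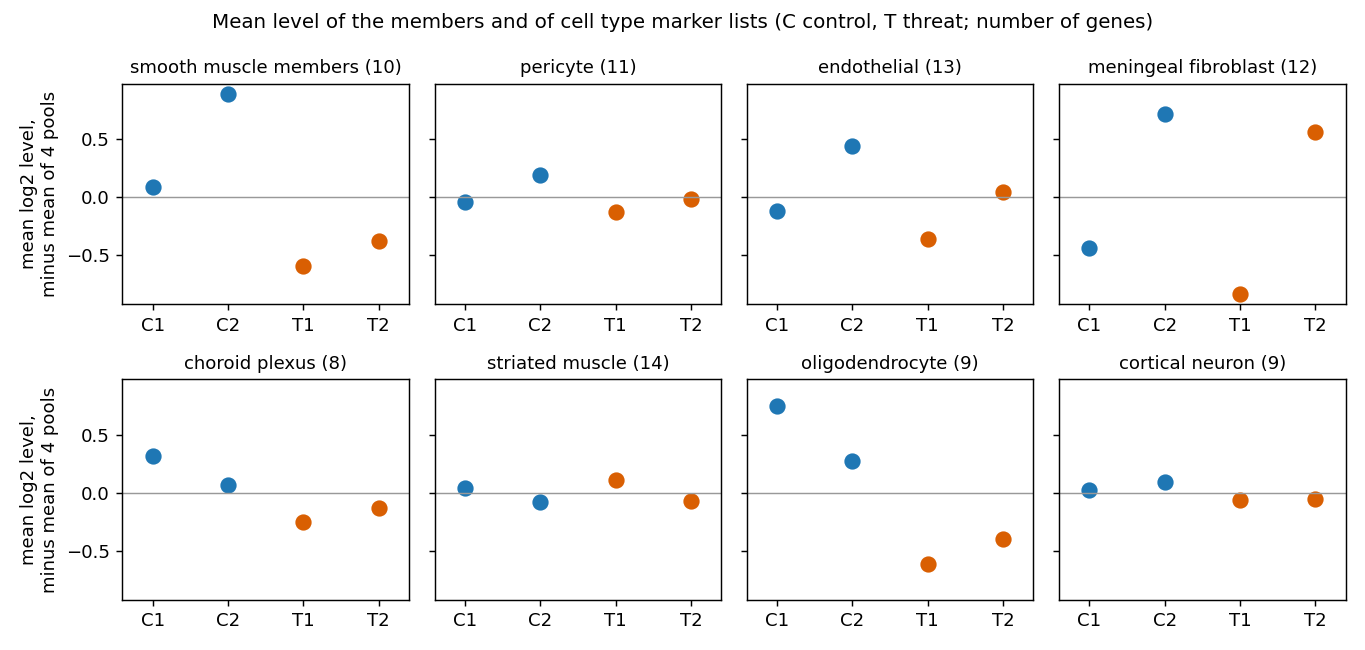
Mean log2 level of the 10 members and of 7 marker lists in each pool (vertical axis, minus the mean of the 4 pools; number of genes in brackets), control in blue and threat in orange. For the members both threat pools lie below both control pools, while the meningeal fibroblast list is high in pool 2 and low in pool 1 of both groups. The mean of the neuron list moves little, although 4 of its 9 genes have separate groups lower in threat and 2 have them higher.

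Signs of RNA integrity differed little. The 3′ to 5′ log2 signal ratio was between -0.05 and 0.03 over the 4 pools for the Gapdh control probe sets and between 0.50 and 0.66 for those of Actb. The arrays correlated with each other at 0.994 to 0.996 over all probe sets. With 2 pools a group, the smallest 2-sided p that an exact permutation test can give is 0.333, and the number of arrays limits the precision.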

How the data were processed

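The authors deposited log2 values, made with RMA per the submitters' processing notes, which give no version or settings. Of 45101 probe sets, 64 control probe sets were left out. The 27 Bacillus controls (highest value 4.25) served as a guide to background. By the platform annotation, 34945 probe sets had 1 symbol and were named, 932 had several and 9160 had none. Threat was compared with control by limma 3.58.1 in R 4.3.3 (lmFit, eBayes, 2-sided, Benjamini-Hochberg over 45037 probe sets, 2 residual degrees of freedom). The fit was tried on simulated data, but only for the recovery of differences larger than that of any member. The limit of size was a mean difference of 1.5-fold with both threat pools beyond both control pools. Where a gene had several probe sets, the one of highest mean stood for it. The members and lists were chosen with earlier results of these data known. Named genes were all members, up to the 4 largest differences per pathway list, those past the limit, and the 8 nearest profiles; further ones were named after their values were seen. Pools average 5 mice, so p-values measure spread between pools. Alternatives were a replicate block, median centring, cyclic loess, an intensity trend, filters, probe set choices, other fold limits and leaving out each pool.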

Additional observations from a re-analysis of the deposited data

How the results depend on the processing

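Cyclic loess, median centring, an intensity trend, leaving out dim probe sets and the replicate block kept 8 of the 10 members past the limit of size and kept each member's direction. The replicate block, with pool number as a term, left the median at -1.07. Numbers mark no known batch; the deviations of same-numbered pools correlated at 0.33 over all probe sets, and the block left 0 of the 80 other pathway genes under a limma adjusted p of 0.05. Leaving out 1 pool took the members' median to -1.64 at the lowest (control pool 1 left out) and -0.53 at the highest (control pool 2 left out), their count past the limit between 4 (without control pool 2) and 8, that of all probe sets lower in threat between 352 and 709 from 324, and that of the other pathway genes between 2 and 10 from 5. With 2-fold and 1.3-fold in place of 1.5-fold, 46 and 1287 probe sets were lower. Median centring left 3 of those 5 genes, Cald1 and Ppp1cb falling short. With all probe sets of a gene averaged, dim ones included, the members' median of threat minus control was -0.71 in place of -1.07 and that of control pool 1 minus pool 2 -0.59 in place of -1.08; Acta2 was at -0.73, Myh11 at -0.68, Mylk at -0.67 and Des at -0.14. Without probe sets ending in _x_at or _s_at, where Acta2 is read by a dim probe set only (-0.23), the median of threat pool 1 minus pool 2 turned from -0.14 to 0.00295 and 7 members passed the limit.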
